A study of Mus musculus with 31 samples.

Results

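Blood cells and endothelial cells grown from the same expandable hemangioblast (eHB) lines were compared. eHBs are mouse progenitors that a set of doxycycline-inducible transgenes holds in a self-renewing state, and they give rise to blood or endothelium when doxycycline is withdrawn. The members are the 5 libraries from blood cultures sorted on day 2 as VE-cadherin-positive and CD45-negative, and the 5 libraries from endothelial cultures taken on day 3, chosen by their titles, which makes 10 of the 31 libraries of the series. Each of the 5 lines (M5 from embryonic fibroblasts, FL4 and FL10 from fetal liver, RB3.6.5 and RB4.6.9 from embryonic stem cells) gave 1 library of each kind, and each line is 1 clone. The endothelial cultures grew for 3 days on Matrigel in N2B27 medium with VEGF (20 ng/mL), 8-bromo-cAMP (0.25 mM), SB431542 (4 µM), BMP4 (20 ng/mL) and FGF2 (12.5 ng/mL), and were not sorted. The blood cultures grew for 2 days with CHIR99021 (3 µM), SCF, IL-3 and Flt3 ligand (each 100 ng/mL) in 1.5% oxygen before the sort. Neither culture contained doxycycline. The undifferentiated eHB lines, kept in 2 µg/mL doxycycline, and CD45-positive, VE-cadherin-positive blood cells sorted on day 3 from the same kind of blood culture were used as points of reference. The eHBs of RB3.6.5 and RB4.6.9 grew with the 5 agents of the endothelial medium, and those of M5, FL4 and FL10 with FGF2 (12.5 ng/mL) as the only one of them. Fate, medium, oxygen, day and sort differ together between the groups and cannot be told apart.

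In the embryo, the first definitive blood cells arise from hemogenic endothelium, a vascular endothelium that switches on Runx1 and other blood regulators, rounds up and leaves the vessel wall. VE-cadherin, the adhesion protein of endothelial junctions encoded by Cdh5, stays on the surface of cells that have begun this step, while CD45, the leukocyte phosphatase encoded by Ptprc, comes up afterwards. A VE-cadherin-positive, CD45-negative sort of a blood culture therefore aims at cells between endothelium and committed blood.

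Levels below are the deposited TPM, a level scaled for transcript length and library size. Where 5 values follow each other they are given in the order M5, FL4, FL10, RB3.6.5 and RB4.6.9. A log2 fold change is day 2 blood minus endothelium, from a fit of the estimated read counts across all genes with the line as a block (edgeR's quasi-likelihood test), so a positive value is higher in blood. Unless another reference is named, a gene that rose is one higher in blood than in endothelium. A gene is called when its Benjamini-Hochberg adjusted p is under 0.05, and called beyond 2-fold when the test against a 2-fold change passes the same threshold. A gene could pass the count filter through 1 group alone. Where a gene list below has members that were not tested, its directions describe the genes that passed and are not a test of the list. Total estimated counts lay between 13236697 and 27084974 in the blood libraries and between 29990385 and 48340524 in the endothelial ones. Each line gave 1 library per fate, so p-values measure the spread between lines. In whole-culture RNA, fewer cells of a type and less RNA per cell cannot be told apart.

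The promoter sequences of 7 of the genes described below are shown as examples that carry a searched motif, from the red cell, leukocyte and myeloid, glycolysis and low oxygen, and endothelial gene groups described below. They were chosen with their matches known, and in most of these groups the larger part of the windows holds no match. Each is the 250 bases before a start site in RefSeq (build GRCm38.p6), 5′ to 3′, with capitals marking the searched motifs that matched. AGATAA is the core bound by GATA factors, and AGGAAGT is bound by ETS factors such as Spi1, Fli1 and Erg. ACGTG is the core of the hypoxia response element. A further motif searched, CCACACCC, had no match in these 7 windows. Alas2, the first enzyme of heme synthesis in red cells, is at chrX:150547167-150547416, plus strand, and Icam4, a red cell adhesion protein, at chr9:21029182-21029431, plus strand.
Alas2: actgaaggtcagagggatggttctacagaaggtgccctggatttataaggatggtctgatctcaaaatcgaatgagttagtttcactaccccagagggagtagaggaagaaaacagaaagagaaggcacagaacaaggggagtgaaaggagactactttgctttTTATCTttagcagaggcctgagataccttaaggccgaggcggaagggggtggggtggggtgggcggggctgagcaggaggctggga
Icam4: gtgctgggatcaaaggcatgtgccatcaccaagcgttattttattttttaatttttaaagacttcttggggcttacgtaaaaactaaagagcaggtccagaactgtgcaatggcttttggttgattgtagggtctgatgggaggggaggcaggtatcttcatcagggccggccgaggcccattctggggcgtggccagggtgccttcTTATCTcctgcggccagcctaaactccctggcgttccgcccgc
Vav1, a signalling protein of blood cells, is at chr17:57278850-57279099, plus strand, and Mpo, the granule peroxidase of myeloid cells, at chr11:87793534-87793783, plus strand.
Vav1: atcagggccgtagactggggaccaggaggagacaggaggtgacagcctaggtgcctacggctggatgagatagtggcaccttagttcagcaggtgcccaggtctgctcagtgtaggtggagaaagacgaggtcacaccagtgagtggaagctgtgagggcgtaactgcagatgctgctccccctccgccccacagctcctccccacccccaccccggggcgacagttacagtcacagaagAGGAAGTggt
Mpo: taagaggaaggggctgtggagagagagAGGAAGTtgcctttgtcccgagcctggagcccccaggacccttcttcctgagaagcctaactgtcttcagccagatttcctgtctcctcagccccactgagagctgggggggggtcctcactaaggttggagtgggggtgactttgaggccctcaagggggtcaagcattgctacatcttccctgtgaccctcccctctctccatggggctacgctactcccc
Ldha, which makes lactate from pyruvate, is at chr7:46845554-46845803, plus strand, and Bnip3, a mitophagy receptor induced by low oxygen, at chr7:138909507-138909756, minus strand.
Ldha: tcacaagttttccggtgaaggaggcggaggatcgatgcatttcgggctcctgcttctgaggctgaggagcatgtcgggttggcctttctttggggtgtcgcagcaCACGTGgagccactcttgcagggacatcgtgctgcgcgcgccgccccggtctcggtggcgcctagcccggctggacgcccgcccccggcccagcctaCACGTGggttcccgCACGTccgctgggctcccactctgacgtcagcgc
Bnip3: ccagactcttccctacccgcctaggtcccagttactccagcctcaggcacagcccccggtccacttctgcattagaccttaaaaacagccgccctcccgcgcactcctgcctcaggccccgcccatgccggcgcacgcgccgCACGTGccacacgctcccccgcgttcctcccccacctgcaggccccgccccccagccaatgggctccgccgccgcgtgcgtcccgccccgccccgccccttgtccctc
Flt1, a VEGF receptor, is at chr5:147726012-147726261, minus strand.
Flt1: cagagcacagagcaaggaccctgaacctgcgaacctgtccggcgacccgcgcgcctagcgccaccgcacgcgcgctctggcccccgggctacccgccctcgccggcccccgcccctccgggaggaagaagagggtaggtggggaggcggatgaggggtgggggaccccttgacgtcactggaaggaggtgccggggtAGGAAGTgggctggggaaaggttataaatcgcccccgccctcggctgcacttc

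The AGATAA letters begin 86 bases before the Alas2 start and 43 bases before the Icam4 start, on the minus strand in both. The AGGAAGT letters begin 10 bases before the start of Vav1, 223 before that of Mpo and 53 before that of Flt1. Ldha carried 5 ACGTG matches and Bnip3 carried 2, where a match on the plus strand and one on the minus strand overlap in the palindrome CACGTG. Both strands were searched, and the shares that follow are of RefSeq promoter windows of the same length. AGATAA was in 35.0% of the 20 windows of erythroid genes, against 6.00% of the 12127 windows of all genes tested. AGGAAGT was in 34.5% of 29 windows of pan-leukocyte genes, 33.3% of 21 windows of myeloid genes and 21.1% of 19 windows of pan-endothelial genes, but in 7.69% of 13 windows of VEGF and Tie genes, a list that also holds Flt1, against 7.21% over all genes tested. ACGTG was in 39.4% of 33 windows of glycolysis genes and 54.5% of 22 windows of other hypoxia response genes, against 21.4% over all genes tested. Lists not tied to low oxygen had similar shares of ACGTG, with 41.7% of 12 windows of heme synthesis genes, 37.5% of 16 windows of cyclic AMP target genes, 36.0% of 25 windows of cell cycle genes and 3 of 6 windows of mesoderm genes. AGATAA was also in 6 of 12 windows of mast cell genes. AGGAAGT was also in 22.7% of 22 windows of Bcl2 family genes and 2 of 6 windows of epithelial genes. CCACACCC was in 0 of 20 windows of erythroid genes, 0 of 17 of megakaryocyte genes and 1 of 6 of globin genes. It was in 12.1% of 33 windows of glycolysis genes and 17.6% of 17 windows of interferon and antigen presentation genes, against 3.46% over all genes tested. Over all genes called beyond 2-fold the shares were close to that background: AGATAA was in 7.17% of the 1826 windows of genes higher in blood and 4.94% of the 2086 windows of genes higher in endothelium, and ACGTG in 22.7% and 17.3%. In the same windows AGGAAGT was in 7.72% and 7.67%, and CCACACCC in 4.27% and 3.69%. Windows of 1 gene can overlap, and a match is a description of the letters, not of a bound site.

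The endothelial cultures carried the defining endothelial transcripts at high levels, and the day 2 blood cells held most of them at lower levels and blood regulators at higher ones. Cdh5 was at 3102, 2837, 3031, 2924 and 2554 TPM in endothelium and at 68, 12.7, 121, 116 and 385 TPM in day 2 blood. All 5 blood libraries lay below all 5 endothelial ones, FL4 the lowest and RB4.6.9 the highest (log2 fold change -4.47 ± 0.68 (SE), adjusted p = 0.00134), although every sorted blood cell was selected for the protein. Pecam1, another junction protein, was at 1752, 1661, 1364, 2011 and 1323 TPM in endothelium and 116, 52.7, 158, 143 and 225 TPM in blood (log2 fold change -3.12 ± 0.31 (SE), adjusted p = 0.000282). Kdr, the main VEGF receptor, was at 513, 711, 785, 719.9 and 695 TPM in endothelium and 30.9, 13, 53.4, 108 and 233 TPM in blood (log2 fold change -3.04 ± 0.57 (SE), adjusted p = 0.00311), again without overlap. Such gaps were common. Among 12482 genes tested, the groups did not overlap in TPM for 4768 genes higher in endothelium and 1531 higher in blood. Each gene said below to have no overlap is read against these counts. Emcn, a sialomucin of capillary and venous endothelium, was low in the cultures: it reached 11.8 to 65.9 TPM in endothelium and 0 to 9.93 TPM in blood, against 927 and 795 TPM in the 2 libraries of endothelium taken from E11.5 embryos.

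Ptprc, the gene of the CD45 protein that the sort excluded, was at 0.244, 0.709, 2.75, 0.52 and 0.031 TPM in day 2 blood and at no more than 0.031 TPM in endothelium, and its counts were too low to be tested. In the CD45-positive cells of day 3 it was at 98.8, 81.4, 102, 16.4 and 45.8 TPM. The day 2 cells were not blank for blood genes, however. Runx1, which is required for the endothelial to blood transition, was at 84.3, 30.4, 50.9, 52.3 and 72.1 TPM in blood and 22, 10.8, 8.98, 6.01 and 2.97 TPM in endothelium (log2 fold change 3.22 ± 0.41 (SE), adjusted p = 0.000645), and no blood library fell as low as the highest endothelial one, M5. Gfi1b, a repressor that Runx1 activates, was at 215, 159, 129, 169 and 128 TPM in blood and 11.9, 3.44, 0.312, 0.49 and 0 TPM in endothelium (log2 fold change 7.72 ± 1.07 (SE), adjusted p = 0.000915). The plot of 12 genes by culture shows both moves in each line.

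**Figure D1:**
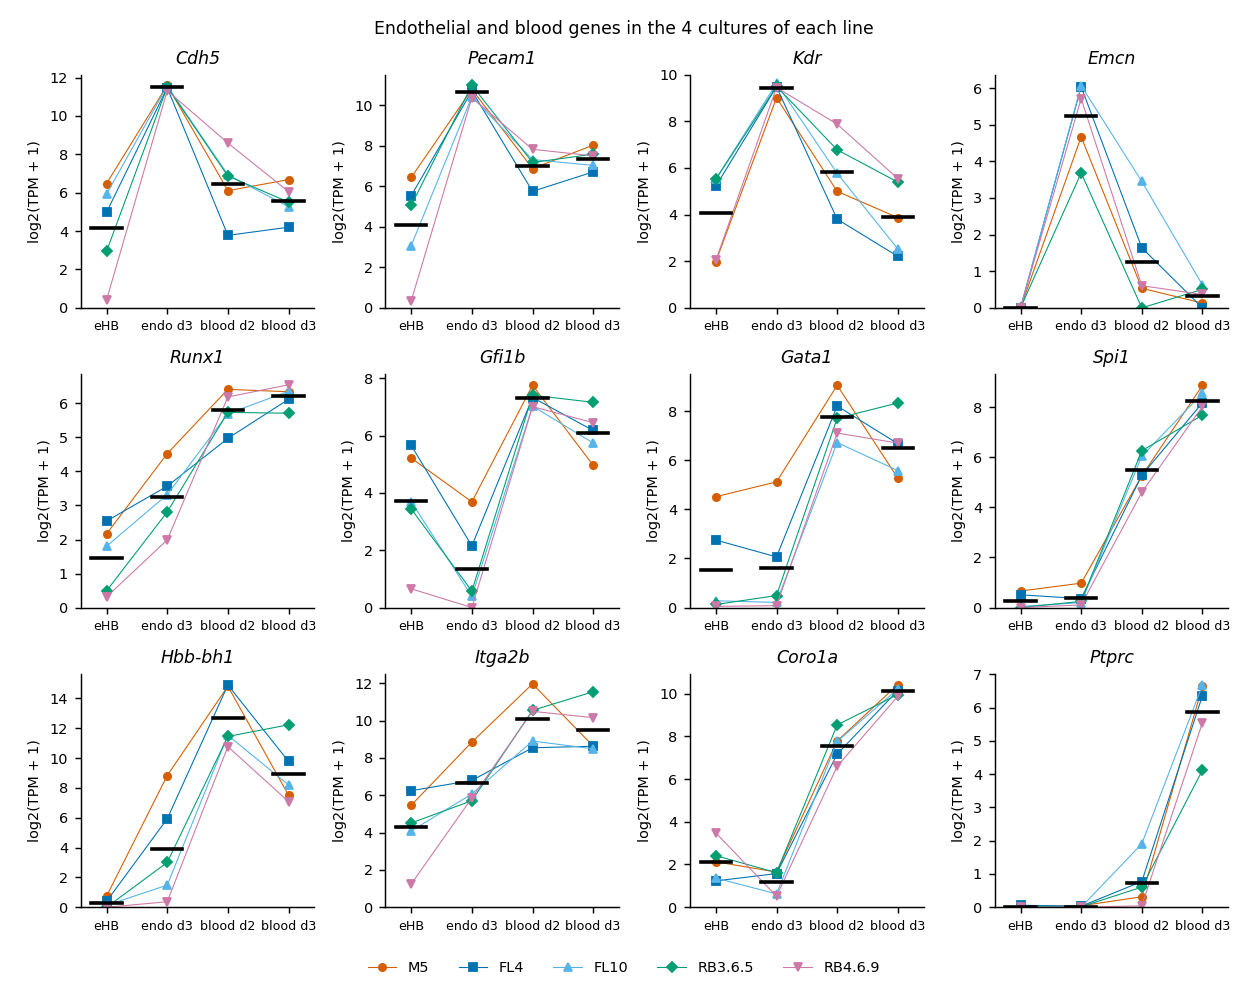
Deposited TPM on a log2(TPM + 1) axis for 12 genes in the eHB, day 3 endothelial (endo d3), CD45-negative day 2 blood (blood d2) and CD45-positive day 3 blood (blood d3) library of each line, with thin lines joining libraries of 1 line and black bars at the mean of the 5 libraries. Cdh5, Pecam1, Kdr and Emcn peak in endothelium, Runx1, Gfi1b, Gata1, Spi1, Hbb-bh1, Itga2b and Coro1a are higher in day 2 blood, and Ptprc stays at or below 2.75 TPM until day 3.

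Of 12482 genes tested, 4121 (33% of them) were higher in blood and 4132 (33.1%) were higher in endothelium at adjusted p under 0.05. Beyond 2-fold, 1889 genes (15.1%) were higher in blood and 2133 (17.1%) in endothelium. These shares are the background against which each gene group below is read. For 3281 genes (26.3%) the 95% interval of the change lay within 1 log2 unit of no change. The balance of directions depends on scaling: the deposited TPM of the genes tested were lower in blood by a median of 0.399 on a log2(TPM + 1) scale, and limma on those values called 2455 genes higher in blood and 5734 higher in endothelium. The median of the edgeR changes was 0.01, and all changes below are relative to it.

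The genes farthest apart were a set of secreted and matrix proteins on the endothelial side and red cell, muscle and metabolic genes on the blood side. They are the 10 per direction with the largest change among genes called beyond 2-fold whose groups do not overlap and whose mean in one of them reaches 20 TPM. Esm1, the tip cell proteoglycan endocan, was at 138, 462, 471, 719.5 and 529.8 TPM in endothelium and 0, 0.041, 0.092, 0.041 and 0.112 TPM in blood (log2 fold change -12.35 ± 0.32 (SE), adjusted p = 3.22e-05), the largest change among them. Igfbp3, a secreted binder of insulin-like growth factors, was at 348, 2899, 3324, 6717 and 7588 TPM in endothelium and 0.102 to 28.3 TPM in blood (-8.80 ± 0.60). Tnc, the matrix protein tenascin C, was at 1027, 2056, 1557, 1349 and 1075 TPM in endothelium and 0.112 to 21 TPM in blood (-9.58 ± 1.37). The rule fixes that the groups of these genes do not overlap, so the values are a description. The others higher in endothelium were the metalloprotease Adamts5 (-10.22), the serine protease Prss23 (-10.13), the secreted hormone Stc1 (-9.96), the serpin Serpinb11 (-9.71), the potassium channel gene Kcnq1 (-9.35), Hoxb6 (-8.71) and Saa3, an acute phase protein, which had no count in any blood library and was at least 180.3-fold higher in endothelium against a floor of 3 counts over the 5 blood libraries.

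On the blood side the embryonic globin Hbb-bh1 led (9.72 ± 1.00), with the globin Hbb-bt (8.28) and Gata1 (8.16), which are described with their groups below. Pygl, the liver-type glycogen phosphorylase, was at 14.54, 11.47, 15.9, 86.4 and 24.5 TPM in blood and at most 0.229 TPM in endothelium (8.88 ± 0.35). Cst7, an inhibitor of cysteine proteases found in leukocytes, was at 101, 42.5, 134, 181 and 81.6 TPM in blood and 0 to 1.26 TPM in endothelium (8.34 ± 0.74). Fgf3, a growth factor gene, was at 9.74, 85.7, 170.5, 65.6 and 47.2 TPM in blood and 0 to 1.88 TPM in endothelium (8.26 ± 0.92). Genes best known from other tissues stood beside them: the cartilage matrix gene Matn1 (8.76, 34.2 to 410.2 TPM in blood), the slow muscle troponin Tnni1 (8.16, 52.9 to 576 TPM), the tubulin Tuba8 (8.29, 18.8 to 165 TPM) and the coactivator gene Cited4 (8.37, 37.7 to 767 TPM).

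**Figure D2:**
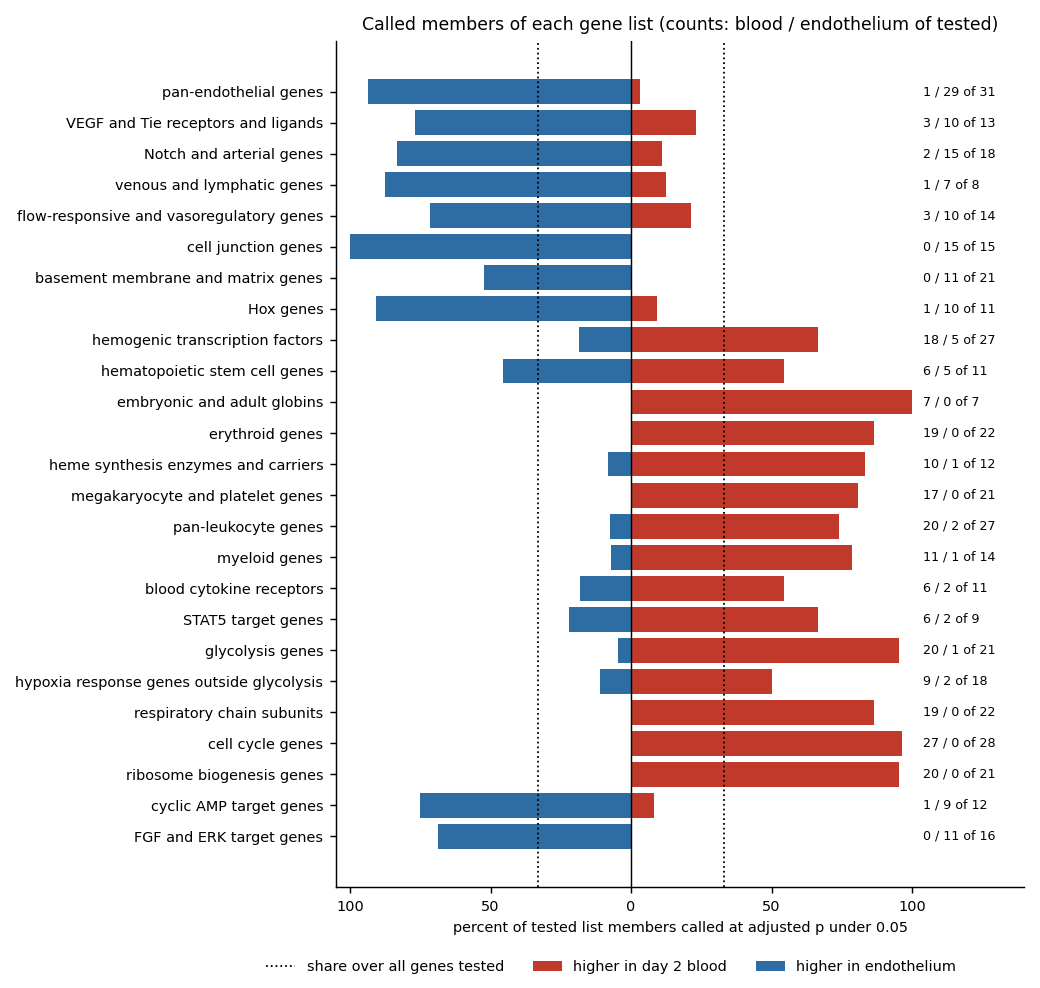
Percent of the tested members of 25 gene lists that were called at adjusted p under 0.05, higher in day 2 blood (red, to the right) or higher in endothelium (blue, to the left), with the counts at the right and dotted lines at the shares over all genes tested, 33% and 33.1%. Vascular lists extend to the left, and red cell, megakaryocyte, leukocyte, glycolysis, cell cycle and ribosome biogenesis lists to the right.

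Nearly the whole pan-endothelial list was higher in the endothelial cultures. Of 31 genes tested, 29 were higher in endothelium and 1 in blood, 24 and 1 of them beyond 2-fold, with a median of -3.33. Counts were 29 and 1 without line M5 and also with limma on TPM. The summed level of the list was 14054, 13363, 13674, 16380.4 and 13049 TPM in endothelium and 2106, 489, 1415, 1836 and 3264 TPM in blood. Among the blood libraries FL4 had the lowest sum and RB4.6.9 the highest. The smallest called changes were those of the receptor gene Tie1 (-1.42 ± 0.33) and of Fli1, an ETS factor that both endothelium and blood use (-1.28 ± 0.39), and the Fli1 call was lost without FL10 or without RB3.6.5.

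The member called in the other direction was Vwf, the gene of von Willebrand factor, which endothelium and megakaryocytes both make. It was at 1166, 18.3, 37, 225 and 177 TPM in blood and 58.3, 2.63, 0.187, 2.13 and 0.603 TPM in endothelium (log2 fold change 6.54 ± 0.93 (SE), adjusted p = 0.00101). The M5 endothelial culture stood well above the other endothelial ones, and that library also held the highest summed megakaryocyte transcripts of its group (below). Cd34, a sialomucin of endothelium and blood progenitors, was the member not called, with a log2 fold change of -0.000464 (95% interval -1.48 to 1.48). It varied more between lines than between fates: it was at 4.52, 11.8, 45.3, 742 and 696 TPM in endothelium and 2.44, 14.8, 86.7, 290.0 and 210.1 TPM in blood, highest in both RB lines and lowest in M5.

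Among VEGF and angiopoietin genes, the receptors were higher in endothelium and the ligands lay on both sides. Of 13 tested genes of this list of 14, 10 were higher in endothelium and 3 in blood, and the counts were the same without M5. Among receptors, Flt1, which binds Vegfa and restrains it, was at 196, 164, 261, 128 and 170.1 TPM in endothelium and 12.5, 5.82, 34, 19 and 17.2 TPM in blood (-3.00 ± 0.29). Flt4, the Vegfc receptor of lymphatic and angiogenic endothelium, changed by -6.58 ± 0.88, and Nrp1, a VEGF coreceptor, by -7.16 ± 0.89 (164 to 298 TPM in endothelium, 0.132 to 8.12 TPM in blood). The receptors therefore differed by sizes from -1.42 for Tie1 to -7.16 for Nrp1, all in the same direction.

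Among ligands, Vegfa itself was at 13.9, 28.3, 38.8, 24 and 38.2 TPM in blood and 1.89, 1.97, 2.48, 1.37 and 1.47 TPM in endothelium (log2 fold change 4.46 ± 0.21 (SE), adjusted p = 7.35e-05). Vegfb (1.93 ± 0.28) and Angpt1, the ligand that activates the Tie2 receptor (5.22 ± 0.86, 5.39 to 38.8 TPM in blood), were higher in blood too. Angpt2, the endothelial ligand of the same receptor, went the other way, at 978, 46.6, 89.9, 158 and 141 TPM in endothelium and 0.529, 0.203, 0.481, 0.163 and 0.991 TPM in blood (-8.02 ± 0.63). Vegfc (-3.66 ± 0.21) and the placental growth factor gene Pgf (-4.68 ± 0.58) were also higher in endothelium.

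Notch signalling is the pathway that specifies arteries, and its endothelial members were higher in the endothelial cultures. Of 18 tested of 19 listed Notch and arterial genes, 15 were higher in endothelium and 2 in blood, with a median of -4.46, and the same counts without M5. The arterial ligand Dll4 was at 677, 369.7, 475, 407 and 336 TPM in endothelium and 0.539, 0.132, 1.52, 0.837 and 2.92 TPM in blood (-8.45 ± 0.69). The Notch target Hey1 (-7.17), the receptor Notch4 (-6.84), the arterial ephrin Efnb2 (-6.83) and the chemokine receptor Cxcr4 (-6.68) were likewise higher in endothelium. The receptor Notch2 (1.51 ± 0.33) and the ligand Jag2 (2.00 ± 0.48) were higher in blood, and the Notch2 call was lost in limma on TPM.

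Venous and lymphatic genes did not take the opposite side to the arterial ones. Of 8 tested of 9 listed, 7 were higher in endothelium and 1 in blood. Lyve1, the hyaluronan receptor of lymphatic and sinusoidal endothelium, was at 1817, 1803, 2802, 1367 and 2171 TPM in endothelium and 1.39, 0.182, 14.6, 2.53 and 36 TPM in blood (-8.43 ± 1.11), and the scavenger receptor Stab2 changed by -7.98 ± 1.06. Of 14 tested flow-responsive and vasoregulatory genes 10 were higher in endothelium, among them Cav1, the coat protein of caveolae (-5.62), and the nitric oxide synthase gene Nos3 (-4.62). Of the 3 higher in blood, Ptgs1 (5.67) and Selp, the P-selectin gene (3.92), are also known from platelets.

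Junctions and basement membrane followed the same side. All 15 tested cell junction genes (of 16 listed) were higher in endothelium, 13 beyond 2-fold, with a median of -2.20, and 14 were called without M5. They included the tight junction scaffold Tjp1 (-4.70 ± 0.37), the paracingulin gene Cgnl1 (-5.66 ± 0.65) and the claudin Cldn5 (-4.48 ± 0.28). Of 21 tested matrix genes 11 were higher in endothelium, all of them beyond 2-fold, and none was called higher in blood in edgeR's test. Without FL4, 1 matrix gene was called higher in blood. For both lists 0 genes were higher in blood at an unadjusted p under 0.05 and 0 in DESeq2. Col4a1, the main collagen of basement membranes, was at 3260.1, 4658, 4733, 3359 and 3010.3 TPM in endothelium and 40.1, 37, 308, 91.4 and 384 TPM in blood (-4.55 ± 0.60). Sparc, a collagen-binding protein, was at 5343 to 7394 TPM in endothelium and 34.4 to 594 TPM in blood (-4.52 ± 0.58). The laminin Lama4 (-6.67) and the metalloprotease inhibitor Timp1 (-7.11) differed by more.

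The transcription factors of the blood program separated into those higher in blood, those higher in endothelium and a small core that was near equal. Of 27 tested hemogenic transcription factors (of 29 listed), 18 were higher in blood and 5 in endothelium, 14 and 3 of them beyond 2-fold, with a median of 2.13, and 18 and 5 were called without M5. Spi1, the master regulator of myeloid cells, was at 37.2, 37.7, 64.8, 75.4 and 23.2 TPM in blood and 0.962, 0.28, 0.146, 0.185 and 0.075 TPM in endothelium (log2 fold change 7.94 ± 0.53 (SE), adjusted p = 0.000102). Gata1, which directs red cells and megakaryocytes, was at 533, 296, 105, 209.6 and 137 TPM in blood and 33.8, 3.18, 0.156, 0.403 and 0.054 TPM in endothelium (log2 fold change 8.16 ± 1.06 (SE), adjusted p = 0.000697). Factors of opposing lineages were thus raised in the same sorted populations.

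Other factors of the red cell and megakaryocyte branch rose as well. Nfe2, which drives platelet formation and globin expression, changed by 7.80 ± 1.12. Klf1, the red cell Krüppel-like factor, was at 105, 349, 50.9, 9.85 and 7.8 TPM in blood and 2.67, 1.36, 0.052, 0.207 and 0.161 TPM in endothelium (7.28 ± 0.65). The Gata1 cofactor Zfpm1 changed by 3.80 ± 0.37, and Myb, a factor of proliferating progenitors, by 5.70 ± 1.10 (10.3 to 97.1 TPM in blood). Gfi1, the relative of Gfi1b, differed between lines: it was at 0.051, 0.273, 14.7, 9.43 and 36.9 TPM in blood and at most 0.28 TPM in endothelium, and it was not tested because 2 blood libraries had almost no counts.

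Tal1, Lyl1, Gata2, Lmo2 and Ldb1 encode proteins that take part in related complexes on DNA, and their genes did not move alike. The endogenous Tal1 was at 237, 143, 185, 195 and 195 TPM in blood and 71.3, 54.7, 67.3, 43 and 47.1 TPM in endothelium (log2 fold change 2.27 ± 0.18 (SE), adjusted p = 0.00015). Lyl1 changed by 2.61 ± 0.25 and Gata2 by 1.30 ± 0.22 (32 to 70.7 TPM in blood, 18.5 to 44.1 TPM in endothelium). The scaffold members stayed close. Lmo2 was at 119, 125, 96.8, 101 and 122 TPM in blood and 147, 78.9, 98.6, 238 and 194 TPM in endothelium (log2 fold change 0.18 ± 0.31 (SE), adjusted p = 0.623, 95% interval -0.55 to 0.91), and Ldb1 at 207 to 264 TPM and 215 to 329 TPM (log2 fold change 0.33 ± 0.15 (SE), adjusted p = 0.0957, 95% interval -0.03 to 0.69). Both intervals lay within a 2-fold change, and both signs turned in limma on TPM.

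The 5 factors higher in endothelium were Mecom, Sox17, Erg, Fli1 and Cbfb. Sox17, which the arterial endothelium expresses, was at 57.3, 296, 92.3, 310.0 and 119.9 TPM in endothelium and 1.34, 1.28, 7.05, 3.73 and 7.99 TPM in blood (log2 fold change -4.95 ± 0.65 (SE), adjusted p = 0.000737). Mecom, a factor of stem cells and arterial endothelium, changed by -5.39 ± 0.96. Erg, an ETS factor of endothelium and stem cells, was at 52.9 to 283 TPM in endothelium and 2.58 to 60.7 TPM in blood (log2 fold change -2.47 ± 0.54 (SE), adjusted p = 0.00626). Cbfb, the partner of Runx1, was higher in endothelium by a small margin (-1.23 ± 0.29) and was not called in the 3 tissue-derived lines alone.

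Genes known from hematopoietic stem cells went to both sides. Of 11 tested of 13 listed, 6 were higher in blood and 5 in endothelium, and 4 and 5 without M5. Hlf, a factor of stem cells and their embryonic precursors, was at 0.57, 0.922, 7.11, 0.52 and 2.06 TPM in blood and 0.293, 0.114, 0.177, 0.109 and 0.032 TPM in endothelium (log2 fold change 4.02 ± 0.78 (SE), adjusted p = 0.00368). These levels were low, and every blood library lay above every endothelial one. Meis1, a cofactor of Hox proteins, changed by 2.04 ± 0.56, a call lost without M5, and the surface receptor Slamf1 by 3.12 ± 0.73, a call lost without the line block, with FL4 blood as low as the endothelial cultures. Procr, the endothelial protein C receptor that also marks stem cells, was at 892, 294, 604, 360.5 and 585 TPM in endothelium and 34.2, 5.1, 98.9, 56.6 and 205 TPM in blood (log2 fold change -2.87 ± 0.60 (SE), adjusted p = 0.00505). Fgd5 (-4.19 ± 0.82), a gene shared by stem cells and endothelium, and Hoxb4 (-4.33 ± 0.75) were on the same side, with no overlap between the groups.

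**Figure D3:**
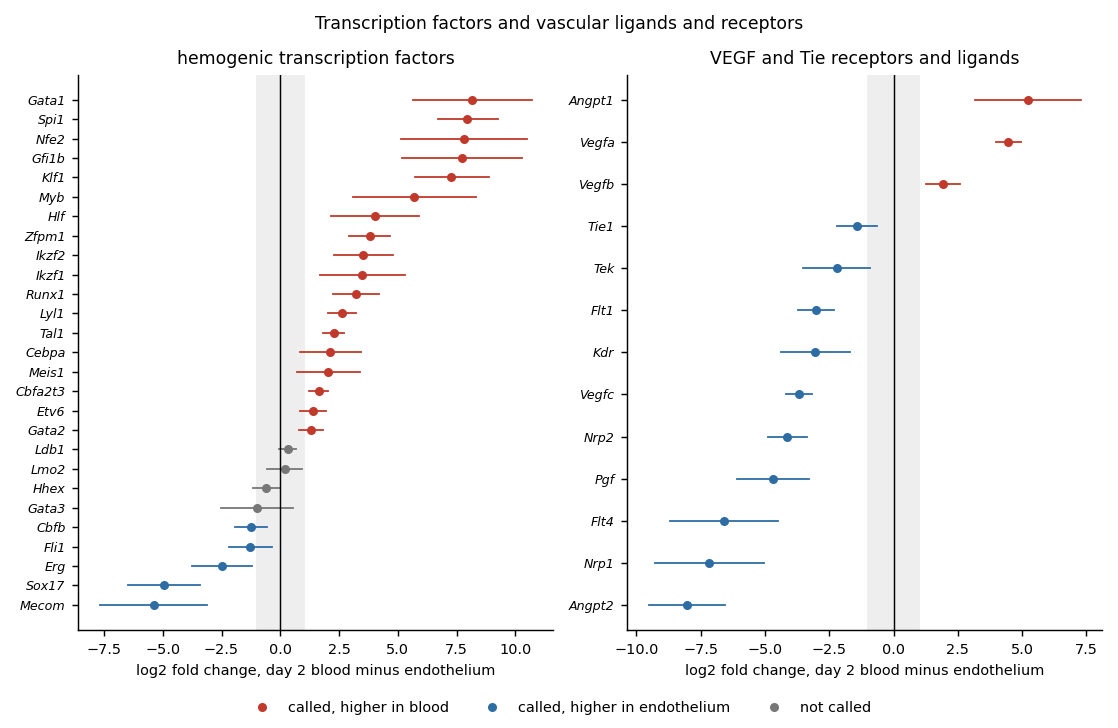
Log2 fold change of day 2 blood minus endothelium (points) with its 95% interval (bars) for the tested hemogenic transcription factors (left) and the tested VEGF and Tie receptors and ligands (right), coloured by call, with the band within a 2-fold change in grey. Gata1 and Spi1 are at the top of the left panel, Lmo2 and Ldb1 in the grey band and Sox17 and Mecom at its foot. The right panel has Vegfa, Vegfb and Angpt1 on the blood side, and the ligands Angpt2, Vegfc and Pgf with the receptors on the endothelial side.

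Red cell genes had the largest median difference among the blood lineage lists, with globins at 8.30. Of 22 tested erythroid genes (of 24 listed), 19 were higher in blood and none in endothelium at adjusted p under 0.05, with a median of 5.86, and 18 and 0 were called without M5. Without FL4, 1 member was called higher in endothelium. All 7 globin genes tested were higher in blood, 7 of 7 also without M5 and 5 of 7 without the line block. Hbb-bh1, an embryonic beta globin, was at 28937, 30617, 2965, 2807 and 1751 TPM in blood and 455, 60.1, 1.8, 7.03 and 0.291 TPM in endothelium. M5 and FL4 made far more of it than the other lines in both cultures. The summed globin level in blood was 78465, 71710.5, 7402, 5083 and 3663 TPM, and the embryonic genes Hbb-bh1, Hbb-y and Hba-x gave 71.1%, 78.2%, 74.1%, 75.8% and 67.0% of it. Reads of Hba-a1 and Hba-a2, and of Hbb-bs and Hbb-bt, can be split between near-identical copies, so the values of these single genes, Hbb-bt above included, are uncertain.

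Membrane and heme genes of red cells moved with the globins. Slc4a1, the anion exchanger Band 3, was at 59.6, 239.9, 29.3, 1.9 and 0.531 TPM in blood and 0 to 1.44 TPM in endothelium (8.45 ± 0.93). Alas2, whose promoter is shown above, was at 518, 248, 20.8, 17.9 and 33 TPM in blood and 20.9, 0.891, 0.52, 0.468 and 0.312 TPM in endothelium (6.51 ± 0.61). FL4 and M5 had the highest Alas2, and the M5 endothelial culture stood above the other endothelial ones. The spectrin Sptb (7.80), the nuclear protein gene Hemgn (7.36) and Icam4 (7.29) rose too. Epor, the erythropoietin receptor, changed by 2.02 ± 0.29, while Tfrc, the transferrin receptor that brings iron, did not pass (log2 fold change 0.78 ± 0.36 (SE), adjusted p = 0.0958).

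Heme synthesis is shared by all cells, and its genes were mostly higher in blood. Of 12 tested heme genes 10 were higher in blood and 1 in endothelium, with 9 and 1 without M5 and 2 in endothelium without FL4. Cpox, an enzyme of the later part of the pathway, was among the 10 (4.26 ± 0.47). Alas1, the first enzyme in other tissues, was the member higher in endothelium (-0.66 ± 0.17).

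Megakaryocyte and platelet genes rose in number like the red cell genes. Their summed level was highest in M5 blood and lowest in FL4 blood. Of 21 tested, 17 were higher in blood and none in endothelium at adjusted p under 0.05, with a median of 4.22, and 14 and 0 were called without M5. Itga2b, the integrin CD41 that marks the first blood cells as well as megakaryocytes, was at 3991, 372, 478, 1497 and 1441 TPM in blood and 459, 110.0, 66.2, 51.3 and 57 TPM in endothelium (log2 fold change 4.00 ± 0.51 (SE), adjusted p = 0.00066). Pf4, platelet factor 4, was at 15258, 122, 373, 1001 and 1086 TPM in blood and 994, 20.6, 14.1, 5.15 and 6 TPM in endothelium (log2 fold change 5.76 ± 0.90 (SE), adjusted p = 0.00148). M5 had by far the most Pf4 in both cultures, and FL4 the least in blood. The platelet receptor Treml1 (6.56) and the glycoprotein Gp9 (6.41) rose further. The call of Pf4 was lost without the line block.

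Leukocyte genes other than that of CD45, whose counts were too low to be tested, were mostly higher in blood. Of 27 tested pan-leukocyte genes (of 30 listed) 20 were higher in blood and 2 in endothelium, with a median of 5.19, and 20 and 1 were called without M5. The second count was also 1 without FL4 or without RB4.6.9. Coro1a, the coronin of leukocyte actin, was at 219, 143, 215, 369 and 95.4 TPM in blood and 2.13, 1.98, 0.541, 2.07 and 0.43 TPM in endothelium (log2 fold change 7.84 ± 0.35 (SE), adjusted p = 7.35e-05). Vav1, whose promoter is shown above, was at 52.8, 55.5, 85.8, 81.4 and 32.1 TPM in blood and 0.129 to 2.09 TPM in endothelium (6.58 ± 0.48). Itgb2, the leukocyte integrin chain CD18, was at 368, 40.5, 34.3, 82.6 and 39.3 TPM in blood and 0.054 to 9.19 TPM in endothelium (6.80 ± 0.74). The kinase Btk (8.01), the lysosomal protein Laptm5 (6.95) and the phosphatase Ptpn6 (6.76) rose with them.

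Granule genes of myeloid cells were present at lower levels. Of 14 tested myeloid genes (of 23 listed) 11 were higher in blood and 1 in endothelium, with 10 and 1 without M5 and 0 in endothelium without RB3.6.5, while the other 9 had too few counts to test. These directions describe the genes that passed the count filter, which a gene could do through blood alone. Summed over the list, tested or not, myeloid genes were at 182 to 549 TPM in blood and 19.2 to 93.2 TPM in endothelium. Mpo was at 46.6, 25.2, 60.7, 31.4 and 19.6 TPM in blood and 0 to 0.86 TPM in endothelium (log2 fold change 7.29 ± 0.66 (SE), adjusted p = 0.000209). Prtn3, proteinase 3, was at 11.9, 1.04, 1.01, 3.94 and 3.62 TPM in blood (6.02 ± 0.70), and Lyz2, lysozyme, at 99.2, 6.84, 47.2, 69 and 144 TPM (4.90 ± 1.14). Only 5 of 12 mast cell genes, 5 of 13 macrophage genes and 1 of 12 lymphoid genes had enough counts to test. Of these lists 2, 2 and 0 genes were higher in blood and 1, 2 and 1 in endothelium, and the first pair of blood counts fell to 1 each without M5, without FL10 or without RB3.6.5 (the macrophage count without any 1 line). Cpa3, a mast cell protease that early progenitors also express, was at 33.1, 13.5, 60.6, 9.93 and 2.9 TPM in blood (5.05 ± 0.67), while Mertk, a receptor by which macrophages take up dying cells, was at 16.4, 3.79, 6.32, 3.38 and 4.27 TPM in endothelium and 0.264, 0.284, 0.962, 0.153 and 0.429 TPM in blood (-3.40 ± 0.43). Summed levels of the mast cell list, which holds Kit, and of the macrophage list were lower in blood than in endothelium in 5 of 5 lines, with macrophage sums of 7.07, 3.74, 7.18, 10.2 and 10.7 TPM in blood and 26.5, 14.1, 22.6, 24.8 and 33.4 TPM in endothelium.

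**Figure D4:**
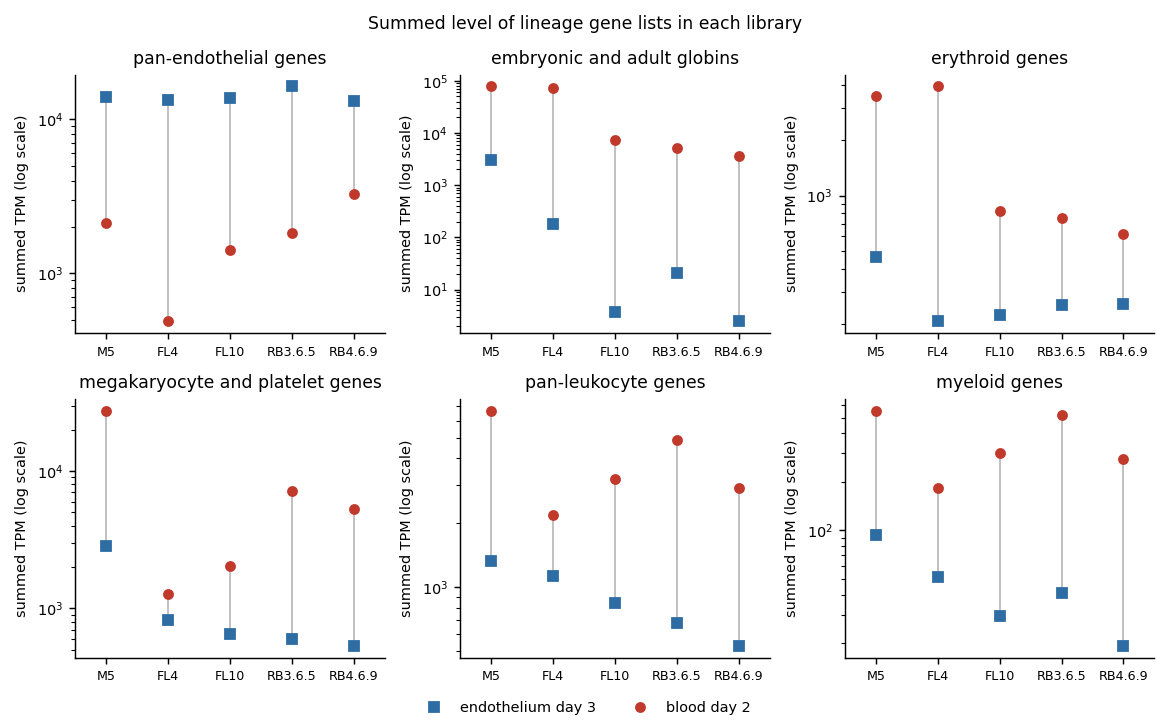
Summed TPM (log axis) of 6 gene lists in the day 3 endothelial library (blue squares) and the day 2 blood library (red circles) of each line, joined by a grey line. Globin and erythroid sums are highest in M5 and FL4 blood, megakaryocyte sums in M5, RB3.6.5 and RB4.6.9 blood, and the M5 endothelial library lies above the other endothelial ones in every panel but the first.

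The lines thus reached day 2 with different mixtures of lineage transcripts. Summed erythroid genes were at 3474, 3939, 828, 757 and 619 TPM in blood, and summed megakaryocyte genes at 27389, 1273, 2050.0, 7165 and 5282 TPM. FL4 had the highest erythroid sum, the lowest megakaryocyte sum and the lowest summed endothelial level among the blood libraries. M5 was high for red cell and megakaryocyte sums. The endothelial cultures were not sorted, and that of M5 held summed erythroid genes of 465 TPM against 207 to 256 TPM in the others, and summed megakaryocyte genes of 2859 TPM against 532 to 816 TPM. For this reason counts without M5 are given beside many of the lists, though not all. Without M5, 0 matrix genes were higher in blood and 13 in endothelium. The same counts were 1 and 3 for BMP target genes, 4 and 2 for Wnt target genes and 1 and 10 for Hox genes. The part of these transcripts in the comparison was not tested beyond those counts.

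Receptors for the blood cytokines did not move as 1 group. Of 11 tested of 13 listed, 6 were higher in blood and 2 in endothelium, and 4 and 2 without M5. Csf3r, the receptor of granulocyte colony-stimulating factor, was at 5.04, 0.719, 3.48, 2.86 and 3.22 TPM in blood and 0.108 to 0.575 TPM in endothelium (4.21 ± 0.51). Csf2rb2, the beta chain that mouse IL-3 uses, changed by 2.58 ± 0.65, and the shared beta chain Csf2rb by 2.09 ± 0.73, a call lost when any of M5, FL10, RB3.6.5 or RB4.6.9 was left out. Kit, the receptor of SCF, was higher in endothelium, at 138, 179, 204, 133 and 99.7 TPM against 14.47, 23.8, 74.4, 49.7 and 67.8 TPM in blood (log2 fold change -1.37 ± 0.34 (SE), adjusted p = 0.0107). The IL-3 receptor alpha chain Il3ra was slightly higher in endothelium (log2 fold change -0.61 ± 0.20 (SE), adjusted p = 0.0292), and that call was lost without FL4, without FL10 or without RB4.6.9. The ligands of both receptors were in the blood medium and not in the endothelial one.

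Genes that STAT5 activates downstream of such receptors rose in part. Of 9 tested, 6 were higher in blood and 2 in endothelium, and 7 and 1 without M5, with 1 in endothelium also without FL4 or without RB4.6.9. The feedback inhibitors Cish (3.38 ± 0.41) and Socs1 (2.84 ± 0.56) and the survival kinases Pim1 (1.91 ± 0.28) and Pim2 (2.60 ± 0.30) were higher in blood. Cish was at 42.9, 19, 62, 47 and 42.1 TPM in blood and 2.66 to 10.9 TPM in endothelium. Bcl6, which STAT5 represses, was higher in endothelium (-2.54 ± 0.40).

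Glycolysis was raised as a whole in the day 2 blood cells, which had been kept in 1.5% oxygen. Of 21 tested genes, 20 were higher in blood and 1 in endothelium, 18 and 0 of them beyond 2-fold, with a median of 2.90 and the same 20 and 1 without M5 and in limma on TPM. The list summed to 32596, 29440.3, 29328, 42448 and 34574 TPM in blood and 11706, 9329.8, 9002, 8645 and 8660.1 TPM in endothelium, a range within each culture that was narrower than the gap between them. Every line shared the difference.

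The increase ran from uptake to export. The glucose transporter Slc2a3 changed by 5.24 ± 0.91 (112 to 1199 TPM in blood, 2.52 to 48.8 TPM in endothelium) and the general transporter Slc2a1 by 1.85 ± 0.26. Hexokinase Hk2 changed by 4.70 ± 0.43, phosphofructokinase Pfkl by 4.89 ± 0.24, the aldolase Aldoc by 5.93 ± 0.37 and Tpi1 by 3.92 ± 0.19. Ldha was at 4308, 4419, 4233, 6241 and 4774 TPM in blood and 618, 612, 439, 472 and 471 TPM in endothelium (log2 fold change 3.74 ± 0.20 (SE), adjusted p = 7.35e-05). Slc16a3, the lactate exporter MCT4, was at 136, 162, 110.3, 363 and 390.4 TPM in blood and 2.19, 0.694, 0.343, 1.07 and 1.51 TPM in endothelium (log2 fold change 7.96 ± 0.40 (SE), adjusted p = 7.35e-05), the largest change of the pathway. Eno1 (3.27), Gapdh (2.23), Pgk1 (1.85) and Pkm (1.23) changed less. The exception was Pfkfb3, whose product stimulates glycolysis in sprouting endothelium: it was at 81.5, 83.4, 101, 66.2 and 75.7 TPM in endothelium and 1.91, 5.1, 20.9, 23.6 and 42.9 TPM in blood (log2 fold change -2.21 ± 0.61 (SE), adjusted p = 0.0167).

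Other genes of the low oxygen response were divided. Of 18 tested, 9 were higher in blood and 2 in endothelium, with 10 and 2 without M5 and 8 and 5 in limma on TPM. The adenylate kinase Ak4 changed by 6.53 ± 0.28. Bnip3 was at 103, 184, 146, 192 and 179 TPM in blood and 6.67, 7.69, 5.91, 8.77 and 5.71 TPM in endothelium (log2 fold change 5.06 ± 0.15 (SE), adjusted p = 4.59e-05). Ankrd37 (4.56) and the oxygen sensor Egln3 (3.96) rose too, and Vegfa, described above, is on this list as well. Ndrg1, also induced by low oxygen in many cells, was higher in endothelium (-2.82 ± 0.20), as was the peptide hormone gene Adm (-4.44 ± 1.33, a call lost without M5 or without RB3.6.5). Of 22 tested respiratory chain subunits 19 were called higher in blood, but only 1 was beyond 2-fold and 10 had intervals within 1 log2 unit, the median was 0.70, and limma on TPM called 9 higher and 1 lower.

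**Figure D5:**
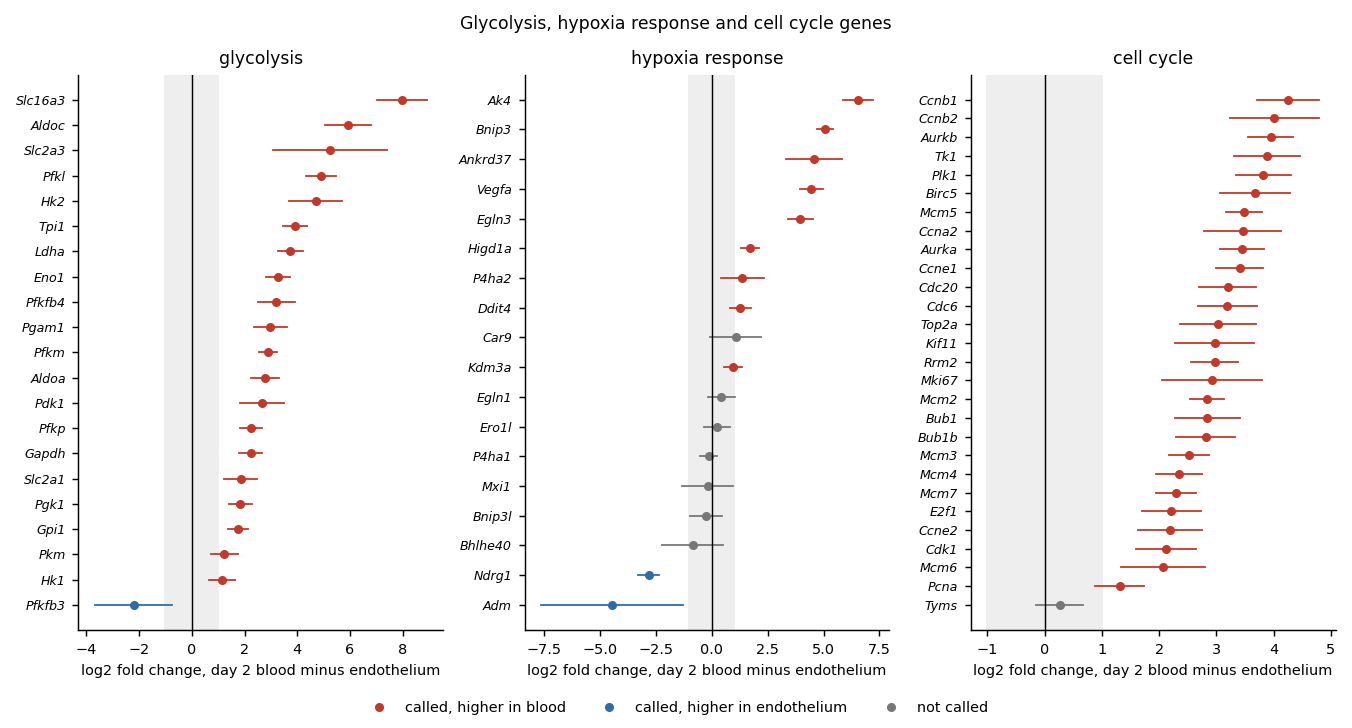
Log2 fold change of day 2 blood minus endothelium (points) with its 95% interval (bars) for the tested genes of glycolysis, of the low oxygen response outside glycolysis and of the cell cycle, coloured by call, with the band within a 2-fold change in grey. Slc16a3 leads the first panel and Pfkfb3 lies alone on its left, the second panel has members on both sides, and 27 of 28 genes of the third are higher in blood.

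The blood cells carried far more transcripts of dividing cells. Of 28 tested cell cycle genes, 27 were higher in blood and none in endothelium at adjusted p under 0.05, 26 of them beyond 2-fold, with a median of 2.97, and 28 and 0 without M5. The cyclin Ccnb1 was at 62.7, 293, 161, 74.3 and 106 TPM in blood and 4.9, 19, 11.9, 9.7 and 5.94 TPM in endothelium (log2 fold change 4.24 ± 0.23 (SE), adjusted p = 7.35e-05). The mitotic kinase Aurkb (3.95 ± 0.17) and the thymidine kinase Tk1 (3.88 ± 0.24) changed by similar sizes. The summed list was at 1289, 5062, 3585, 2031 and 2611 TPM in blood and 501, 996, 670.5, 695 and 508 TPM in endothelium, where M5 blood was the lowest blood library and still lay above all endothelial ones.

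Ribosome production moved the same way by less. On the endothelial side, 0 members of this list and of the globin, erythroid, megakaryocyte, respiratory chain and cell cycle lists had an unadjusted p under 0.05, and DESeq2 called 0. Of 21 tested ribosome biogenesis genes, 20 were higher in blood and none in endothelium, 13 beyond 2-fold, with a median of 1.62, 21 and 0 without M5 and 16 and 0 in limma on TPM. Wdr12 (2.65 ± 0.25), the snoRNP protein gene Nhp2 (2.51 ± 0.20) and fibrillarin, Fbl (2.28 ± 0.17), are examples. Fbl in M5 blood was at 146 TPM against 348 to 473 TPM in the other blood libraries. Among 7 CDK inhibitors, Cdkn2d was higher in blood (3.07 ± 0.30) and Cdkn2b was among the 2 higher in endothelium (-2.18 ± 0.22), which were 1 without FL4, FL10 or RB3.6.5. Of 12 tested Bcl2 family genes 3 were higher in blood and 5 in endothelium, including the proapoptotic Bcl2l11 (-4.07 ± 0.48) and the protective Bcl2 itself (-2.95 ± 0.25) on the endothelial side and Bid (2.62 ± 0.31) on the blood side.

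FGF and cyclic AMP target genes were mostly higher in endothelium, while BMP and Wnt target genes were divided. The part of any agent of the media in these differences was not tested. The endothelial medium held FGF2 and a cyclic AMP analogue. Of 16 tested FGF and ERK target genes 11 were higher in endothelium and none in blood (0 at an unadjusted p under 0.05 and 0 in DESeq2), and 12 without M5. The FGF feedback inhibitor Spry4 was at 111, 100.5, 106, 54.9 and 75.7 TPM in endothelium and 0.163, 0.638, 1.9, 0.857 and 0.654 TPM in blood (-6.36 ± 0.47), and the ERK phosphatase Dusp6 changed by -3.46 ± 0.65. Of 12 tested cyclic AMP target genes 9 were higher in endothelium and 1 in blood, 2 in blood without RB4.6.9, with the phosphodiesterase Pde4b (-5.54 ± 0.87) and the nuclear receptor Nr4a3 (-5.23 ± 0.66) among the 9.

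BMP4 was in the endothelial medium and the GSK3 inhibitor CHIR99021, which activates Wnt signalling, in the blood medium. Of 8 tested BMP target genes 2 were higher in blood and 2 in endothelium: Id3 was at 32.1, 152, 172, 123 and 142 TPM in endothelium and 0.092, 0.304, 0.676, 0.143 and 0.838 TPM in blood (-7.82 ± 0.31), while Id2 (3.32 ± 0.56) and, by a margin lost without M5, FL10 or RB4.6.9, Id1 (1.07 ± 0.34) were higher in blood. Of 8 tested Wnt target genes 3 were higher in blood and 2 in endothelium. The Wnt feedback ligase Rnf43 rose (6.27 ± 0.74). Axin2, the most used Wnt reporter gene, was at 0, 0.537, 0.993, 0.561 and 2.8 TPM in blood and 0.063, 0.238, 0.146, 0.479 and 0.237 TPM in endothelium (log2 fold change 2.07 ± 0.75 (SE), adjusted p = 0.0439), a call lost without FL4, without FL10 or without RB4.6.9, and the cyclin Ccnd1 was higher in endothelium (-2.73 ± 0.52).

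The endothelial medium also held SB431542, an inhibitor of the TGF-beta type I receptor kinase. Of 10 tested TGF-beta target genes 5 were higher in endothelium and 2 in blood, and 3 and 0 in the 3 tissue-derived lines alone. Ctgf was at 671, 519, 399, 496 and 519.8 TPM in endothelium and 0.834, 0.496, 41.9, 1.64 and 21 TPM in blood (log2 fold change -6.61 ± 1.26 (SE), adjusted p = 0.0034), and Cyr61 changed by -4.59 ± 0.94. Both encode matricellular proteins and are also known targets of the YAP pathway. Among the ligands, Tgfb2 was higher in endothelium (-6.19 ± 0.74), and Tgfb1 was at 1542, 245, 529, 971 and 779.5 TPM in blood and 554, 285, 324, 190.2 and 265 TPM in endothelium (1.72 ± 0.38). In FL4 and FL10 blood, Tgfb1 lay within the endothelial range.

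Most Hox genes that could be tested were higher in endothelium. Of 39 listed genes 11 had enough counts to test, and 10 of them were higher in endothelium and 1 in blood. A gene could pass the count filter through 1 group alone, so these directions describe the genes that passed and are not a test of the list. Summed over the list, tested or not, Hox genes were at 157 to 864 TPM in endothelium and 8 to 65.9 TPM in blood. Hoxb5 (-7.59), Hoxb6 (-8.71) and Hoxb8 (-8.68) were led by Hoxb6 at 3.14, 4.52, 18.9, 96.5 and 76 TPM in endothelium and 0, 0, 0, 0.061 and 0.306 TPM in blood. The exception was Hoxd1, at 0.071, 0.891, 6.56, 1.25 and 8.6 TPM in blood (4.53 ± 0.92), which had too few counts to test without RB3.6.5. Of the 4 tested factors of epithelial to mesenchymal transition, 3 were higher in endothelium: Snai1 (-4.75 ± 0.55), Snai2 (-4.63 ± 0.44) and Zeb1 (-4.23 ± 0.41).

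Markers of other cell types were mostly low, with exceptions in both cultures. None of the 7 epithelial genes and 2 of the 9 fibroblast genes had enough counts to test, and the fibroblast collagen Col1a1 was at 0, 0.093, 0.01, 0.022 and 0.172 TPM in endothelium and 0, 0.01, 0.082, 0.082 and 0 TPM in blood. Of 7 tested smooth muscle and pericyte genes 3 were higher in each culture, and the list summed to 35.8 to 113 TPM in blood and 31.5 to 102 TPM in endothelium. Among those higher in blood, the muscle filament gene Des was at 35.3, 61.7, 20.2, 11.6 and 5.7 TPM in blood and 0.596, 0.083, 0.073, 0.022 and 0.495 TPM in endothelium (7.19 ± 0.99), and the pericyte receptor Pdgfrb at 0.356, 5.35, 6.65, 2.31 and 1.29 TPM and 0.073, 0.259, 0, 0.011 and 0.011 TPM (6.16 ± 1.01). Among those higher in endothelium, the potassium channel subunit gene Abcc9 was at 14.52, 3.44, 7.53, 36.2 and 54.2 TPM in endothelium and 0.061, 0.101, 0.665, 0.51 and 3.58 TPM in blood (-4.52 ± 0.53). Of 14 tested interferon and antigen presentation genes 7 were higher in blood and 3 in endothelium, led by Ifitm1 (7.92 ± 0.62, 65.3 to 381 TPM in blood).

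The eHB libraries are a reference that both comparisons share, so values against them are set side by side. The medium of the eHBs differed between the embryonic stem cell-derived and the other lines, and medium and origin cannot be told apart in them. The median of the pan-endothelial list was 2.42 for day 2 blood minus eHB and 6.52 for endothelium minus eHB. The summed list was at 912, 964, 856, 892 and 416 TPM in eHBs, so the blood library lay above its eHB line in 4 of 5 lines and below it in FL4, and the endothelial library above it in 5 of 5. The hemogenic transcription factors were at 2.44 and 0.22, and pan-leukocyte genes at 7.14 and 2.99. Glycolysis genes were above eHB in blood (1.73) and below it in endothelium (-1.25). Cell cycle genes were near the eHB level in blood (-0.45) and far below it in endothelium (-3.56), and ribosome biogenesis genes were below it in both (-1.03 and -2.60). Over all genes tested the medians were -0.05 and 0.05.

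The transgenes had fallen steeply in both cultures. The ectopic Lmo2 was at 5629, 3305, 5301, 1934 and 737 TPM in eHBs, 46.5, 57, 62.4, 19.2 and 29.9 TPM in blood and 37.6, 19.7, 146, 15.5 and 5.83 TPM in endothelium (log2 fold change 1.23 ± 0.53 (SE), adjusted p = 0.0778). The ectopic Tal1 was at 1295 to 4233 TPM in eHBs, 1.49 to 127 TPM in blood and 10.9 to 140.3 TPM in endothelium (log2 fold change -0.16 ± 0.47 (SE), adjusted p = 0.779), and the ectopic Mycn at 1139.6 to 3767 TPM, 0.898 to 24.8 TPM and 3.96 to 21.3 TPM (log2 fold change -0.07 ± 0.73 (SE), adjusted p = 0.94). The ectopic Sox17 was higher in endothelium, at 0 to 22.3 TPM against 0 to 4.5 TPM (log2 fold change -2.40 ± 0.40 (SE), adjusted p = 0.00272). That call was lost without the line block and with eHB and day 3 blood in the fit. The ectopic Gata2 was higher in endothelium too, at 0.043 to 18.3 TPM against 0 to 1.97 TPM (log2 fold change -1.96 ± 0.74 (SE), adjusted p = 0.0488). Its result was the same in only 6 of 14 alternatives, and its call was lost without the line block, without FL4 or without RB4.6.9, among others. Residual transgene levels were therefore small beside the eHB ones in both fates, though Sox17 and Gata2 were called higher in endothelium in the reported fit. The endogenous Mycn was higher in blood (28.3, 52.2, 133, 140.1 and 146 TPM against 27.3, 52.3, 32, 56.2 and 35.4 TPM in endothelium, 1.65 ± 0.30), though the 2 groups overlapped in TPM.

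Myeloid and leukocyte genes were higher in the CD45-positive cells of day 3 than in the CD45-negative cells of day 2, and some endothelial ones were lower. Day and sort differ together between these blood groups and cannot be told apart. In a fit of both blood groups with the endothelial cultures, 1591 of 12932 genes (12.3%) were higher on day 3 and 858 (6.63%) lower, a total of 2449 that ranged from 1175 without FL4 to 3042 without RB3.6.5, with 1196 without FL10, 1382 without RB4.6.9 and 1634 without M5. The day 2 libraries serve both comparisons. The list counts that follow cover members tested between day 2 blood and endothelium. All 14 such myeloid genes and 13 of 27 pan-leukocyte genes were higher on day 3, and none was lower. Spi1 changed by 2.70 ± 0.37 from day 2 to day 3, to 465, 287, 373, 204 and 259 TPM, Coro1a by 2.52 ± 0.30 and Mpo by 4.61 ± 0.63. None of 22 erythroid, 21 megakaryocyte and 7 globin genes was called in either direction, where at an unadjusted p under 0.05 5 erythroid genes were lower and 1 megakaryocyte gene was higher. Of 31 pan-endothelial genes 9 were lower on day 3 and none was higher, against 17 and 1 at an unadjusted p under 0.05. For the myeloid and leukocyte lists 0 genes were lower at an unadjusted p under 0.05.

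The cells' origin left no gene called in this comparison. A term for a different blood-minus-endothelium change in tissue-derived (M5, FL4, FL10) and embryonic stem cell-derived lines (RB3.6.5, RB4.6.9) passed for 0 genes (0%) in edgeR's test, and 757 genes had an unadjusted p under 0.05. The endothelial libraries of the embryonic stem cell-derived lines carry sample numbers from another range than the other 8 libraries; what the number marks is not said, and that range and origin cannot be told apart. Within the 3 tissue-derived lines, whose 6 libraries share 1 range, 6117 genes were called between blood and endothelium, 3107 higher in blood and 3010 higher in endothelium. Of the lists, 26 of 31 pan-endothelial genes were higher in endothelium. On the blood side were 21 of 22 erythroid, 23 of 27 pan-leukocyte, 20 of 21 glycolysis and 27 of 28 cell cycle genes. The list totals are those tested in all 5 lines, and the number tested in these 3 lines is not given here.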

How the data were processed

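RNA was sequenced from TruSeq v2 libraries, per the labels' protocols. The submitters' processing notes name CASAVA 1.8.2, RSEM 1.2.3, Bowtie 0.12.9 and build mm10, and whether counting used strand is not given in the sources used here. The authors deposited expected counts per gene (RSEM's estimated counts, not whole) and TPM described as renormalised, in a way not given in the sources used here. The header of the deposited TPM table holds 1 name too many, so its columns were matched by place and checked: in 31 of 31 columns the detected genes were closest to those of the same library's counts.

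From these files the counts were rounded and fitted with edgeR 4.0.16 in R 4.3.3 (filterByExpr on the groups, TMM, robust quasi-likelihood, line as a block, glmTreat against 2-fold, Benjamini-Hochberg over all genes tested). Levels are the deposited TPM and were not refitted. The pairing comes from the lines: deviations of the 2 libraries of a line from their group means correlated at 0.332 to 0.565, highest with their own line in 5 of 5. Of 20 pairs of libraries within a group none agreed within sampling noise (mean chi-square per gene 62.9 to 467). In simulated counts with the library sizes of this comparison (12442 genes), 88.1% of 67 genes changed 2-fold were called, as were 98.5% of 67 genes changed 4-fold and 0.0735% of unchanged genes. The simulation gave every gene the same dispersion and changed far fewer genes than were called in the data. These shares therefore check the code and do not give the power or the rate of false calls here. DESeq2 1.42.0 and limma 3.58.1 on log2(TPM + 1) served as alternatives. Positions and promoters are RefSeq's for GRCm38.p6.

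The members, gene lists and tests were chosen with earlier results of these data known, so no list is independent evidence of its direction. Named genes are the sort markers and transgene factors, the 10 largest changes in each direction by the stated rule, and members of the lists. An ectopic Erg row was not used here, and some list members are not reported singly.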

Additional observations from a re-analysis of the deposited data

Results flagged for a closer look

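In each group of 5 libraries, the named genes and 9 summed lists were examined on a log2(TPM + 1) scale for a library whose gap to the nearest other library exceeded Dixon's critical value of 0.71 of the group's range. Of 348 groups examined 24 were flagged, where chance flags about 1 in 20. No cause was tested for any of them.

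In 15 of the 24 the library that stood apart was the endothelial culture of M5. It was high for blood genes: Alas2 at 20.9 TPM against 0.312 to 0.891 TPM in the other endothelial cultures, Pf4 at 994 TPM against 5.15 to 20.6 TPM, Vwf at 58.3 TPM against 0.187 to 2.63 TPM, Btk at 4.68 TPM against 0 to 0.29 TPM and Slamf1 at 3.02 TPM against 0.022 to 0.312 TPM. Its summed erythroid genes were at 465 TPM against 207 to 256 TPM, and its summed megakaryocyte and platelet genes at 2859 TPM against 532 to 816 TPM. Its summed glycolysis genes were at 11706 TPM against 8645 to 9330 TPM, with Pkm at 3814 TPM against 2044 to 2373 TPM and the oxygen sensor Egln3 at 37.0 TPM against 10.1 to 14.7 TPM. The same culture was low for the VEGF receptor Kdr, at 513 TPM against 695 to 785 TPM, for Esm1, at 138 TPM against 462 to 720 TPM, for Id3, at 32.1 TPM against 123 to 172 TPM, for Pde4b, at 121 TPM against 365 to 520 TPM, and for Cbfb, at 74.3 TPM against 92.8 to 97.8 TPM.

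FL4 blood was low for Fli1, at 13.7 TPM against 41.3 to 60.8 TPM in the other blood libraries, for Ndrg1, at 15.9 TPM against 34.8 to 43.8 TPM, and for Dusp6, at 1.86 TPM against 20.6 to 39.4 TPM. M5 blood was low for fibrillarin, Fbl, at 146 TPM against 348 to 473 TPM, and had Hey1 at 4.03 TPM against 0.133 to 0.577 TPM. RB4.6.9 blood had Stab2 at 20.8 TPM against 0.061 to 1.10 TPM and Hoxb5 at 2.15 TPM against 0 to 0.163 TPM. RB3.6.5 endothelium had Sparc at 7394 TPM against 5343 to 5554 TPM, and FL4 endothelium Fgf3 at 1.88 TPM against 0 to 0.251 TPM.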

How the results depend on the processing

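The 8253 calls between day 2 blood and endothelium were 8043 without the line as a replicate block, 8718 with DESeq2, 8256 with RLE size factors and 7227 to 8016 with 1 line left out, and calls beyond 2-fold were 3685 without the block and 3417 to 3855 with 1 line left out. Of the deposited TPM, limma called 2455 genes higher in blood with a pseudocount of 1, 2456 with 0.1 and 2463 among genes at 1 TPM or more, against 4121 in the counts, with 5734, 5762 and 5619 higher in endothelium. Upper quartile scaling gave 4537 and 3747. Genes called between day 3 and day 2 blood ranged from 1175 to 3042 with 1 line left out, and were 2051 without the block. The origin term called 0 genes in every alternative run.

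Of 179 named genes tested, 154 kept direction and call in all alternatives run. The sign turned for the ectopic Mycn (0.77 without the block, 0.0503 with upper quartile scaling, 0.0414 with eHB and day 3 blood in the fit, 1.18 in the tissue-derived lines, -0.65 to 0.54 with 1 line left out), the ectopic Tal1 (0.33 without the block, 0.15 with the other groups, 0.64 in the tissue-derived lines, -0.48 to 0.26 with 1 line left out), Cd34 (0.12 with upper quartile scaling, 0.83 in the tissue-derived lines, -0.33 to 0.42 with 1 line left out), Lmo2 (-0.10 to 0.41 with 1 line left out, -0.32 in the 3 limma fits) and Ldb1 (-0.22 in the 3 limma fits). None of these was called as reported, and the cause was not tested. Counts were high enough to test 5 of 12 mast cell, 5 of 13 macrophage, 1 of 12 lymphoid and 14 of 23 myeloid genes.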

Other observations

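Some gene groups outside the comparisons above also differed between day 2 blood and endothelium. The chemokine gene Ccl2, which attracts monocytes, was at 837, 2319, 1779, 1029.8 and 1939 TPM in endothelium and 4.75, 0.547, 65.2, 59 and 206 TPM in blood (log2 fold change -5.13 ± 1.21 (SE), adjusted p = 0.00861). Of 9 tested chemokine and receptor genes, 4 were higher in endothelium and 2 in blood, and the blood count was 1 without M5, without FL4 or without RB3.6.5. Gpihbp1, which holds lipoprotein lipase on the capillary wall, was at 237, 187, 147, 327 and 322 TPM in endothelium and 1.17, 0.466, 2.31, 4.74 and 24.3 TPM in blood (log2 fold change -5.66 ± 0.64 (SE), adjusted p = 0.000436). Of 8 tested genes of endothelial lipid uptake, 4 were higher in endothelium and 2 in blood, with 2 and 2 without RB3.6.5.

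Sterol synthesis genes depended on the measure. Of 18 tested, 8 were higher in blood and 4 in endothelium in edgeR's test, against 5 and 6 in limma on TPM, and 0 were higher in endothelium in the 3 tissue-derived lines alone. The mevalonate pathway gene Mvd was at 254, 171, 118, 305 and 160.4 TPM in blood and 38.9, 56.5, 44, 81.6 and 58.4 TPM in endothelium (log2 fold change 2.35 ± 0.30 (SE), adjusted p = 0.0007), and Fdps changed by 1.58 ± 0.21. Both kept their direction and call in all alternatives run.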
